A study of Mus musculus with 4 samples.

Results

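The genes described here encode the proteins of the mitochondrial ribosome. They were taken from the deposited gene tables by name, as every gene whose name is Mrpl or Mrps followed by a number and at most 1 letter. This rule found 76 of 23337 gene names, and all 76 were detected in every library. The samples are labelled as Kupffer cells, the macrophages that reside in liver, and came from male and female Lyz2cre-RosaYFP mice of 6 to 8 weeks by sorting on yellow fluorescence. Both groups carry this reporter: the myeloid gene Lyz2 drives Cre, which turns on a yellow fluorescent protein (YFP) from Rosa, so a YFP+ cell or a precursor of it has expressed Cre. Total RNA of 2 YFP+ and 2 YFP- libraries was sequenced. The title of 1 library in each group begins with M and that of the other with FM, and the libraries are called here YFP+ M, YFP+ FM, YFP- M and YFP- FM. The labels do not say what M and FM stand for, whether animals were pooled, or whether each library is a different animal. P-values measure only the spread between these libraries, which may be technical. In the main test this spread was taken from genes of similar level, not from the single gene.

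The mitochondrial ribosome translates the few messenger RNAs made from mitochondrial DNA, all of them for core subunits of the respiratory chain and the ATP synthase. Its ribosomal RNAs are made inside the mitochondrion, whereas all of its proteins are encoded in the nucleus, made in the cytosol and imported. Its small subunit reads the messenger RNA, and its large subunit joins the amino acids and is anchored to the inner membrane. Many of its proteins descend from bacterial ribosomal proteins, and others are found only in mitochondria. By subunit, 26 of the 76 genes belong to the small and 49 to the large subunit. Mrps30 and Mrps18a are named as small but counted with the large subunit, where they sit. Mrps36 is now placed in the 2-oxoglutarate dehydrogenase complex and not in the ribosome.

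Values are TPM, a level scaled for gene length and to a fixed sum in each library, so each value depends on whatever else that library holds. The libraries differed in ways that touch all results below. Read coverage at 1 FPKM was 4.81 in YFP+ M, 9.19 in YFP- M, 2.60 in YFP+ FM and 2.59 in YFP- FM, and the 100 most abundant genes took 29.7% to 66.1% of all TPM. All 10 genes of a microglia marker list fell in YFP+ libraries, with a summed level of 75.5 to 1021 TPM against 16425 to 17678 TPM in YFP- libraries, although all samples are labelled liver. The 12 Kupffer cell markers summed to 34149 to 36099 TPM in YFP+ and 6748 to 14712 TPM in YFP- libraries, and no gene of either list was at 0 in any library. Both YFP- libraries hold the microglia transcripts, so no comparison without such a library can be made. Summed markers of endothelium, oligodendrocytes, astrocytes, neurons, stellate cells with pericytes, T with NK cells, and B cells also lay lower in both YFP+ libraries. Their median differences (YFP+ minus YFP-, on a log2 scale) were -3.53 to -1.64, against -1.73 for all tested genes. Summed hepatocyte and neutrophil markers overlapped between the groups. Of the 12 Kupffer cell markers 3 had a negative difference. The part of these other cells in the differences below was not tested. In such bulk samples, fewer cells of a type and less RNA per cell cannot be told apart.

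The mitochondrial ribosomal protein genes were measured at low to moderate levels, which were highest in the YFP- M library. Together they took 0.234% of all TPM in YFP+ M, 0.120% in YFP+ FM, 0.411% in YFP- M and 0.241% in YFP- FM. Their summed level was thus nearly equal in YFP+ M (2341 TPM) and YFP- FM (2413 TPM), although these libraries belong to different groups. The median gene of the family stood at 24.2 TPM in YFP+ M, 10.6 in YFP+ FM, 46.5 in YFP- M and 31.2 in YFP- FM. In YFP+ FM only 68 of the 76 genes reached 1 TPM, against all 76 in each other library. Mean read coverage was under 5 for 14 of them in YFP+ FM and for 3 in YFP- FM, and it was lowest for Mrpl1 (0.621 in YFP+ FM). Values of the low genes are therefore the least precise in those libraries.

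**Figure D1:**
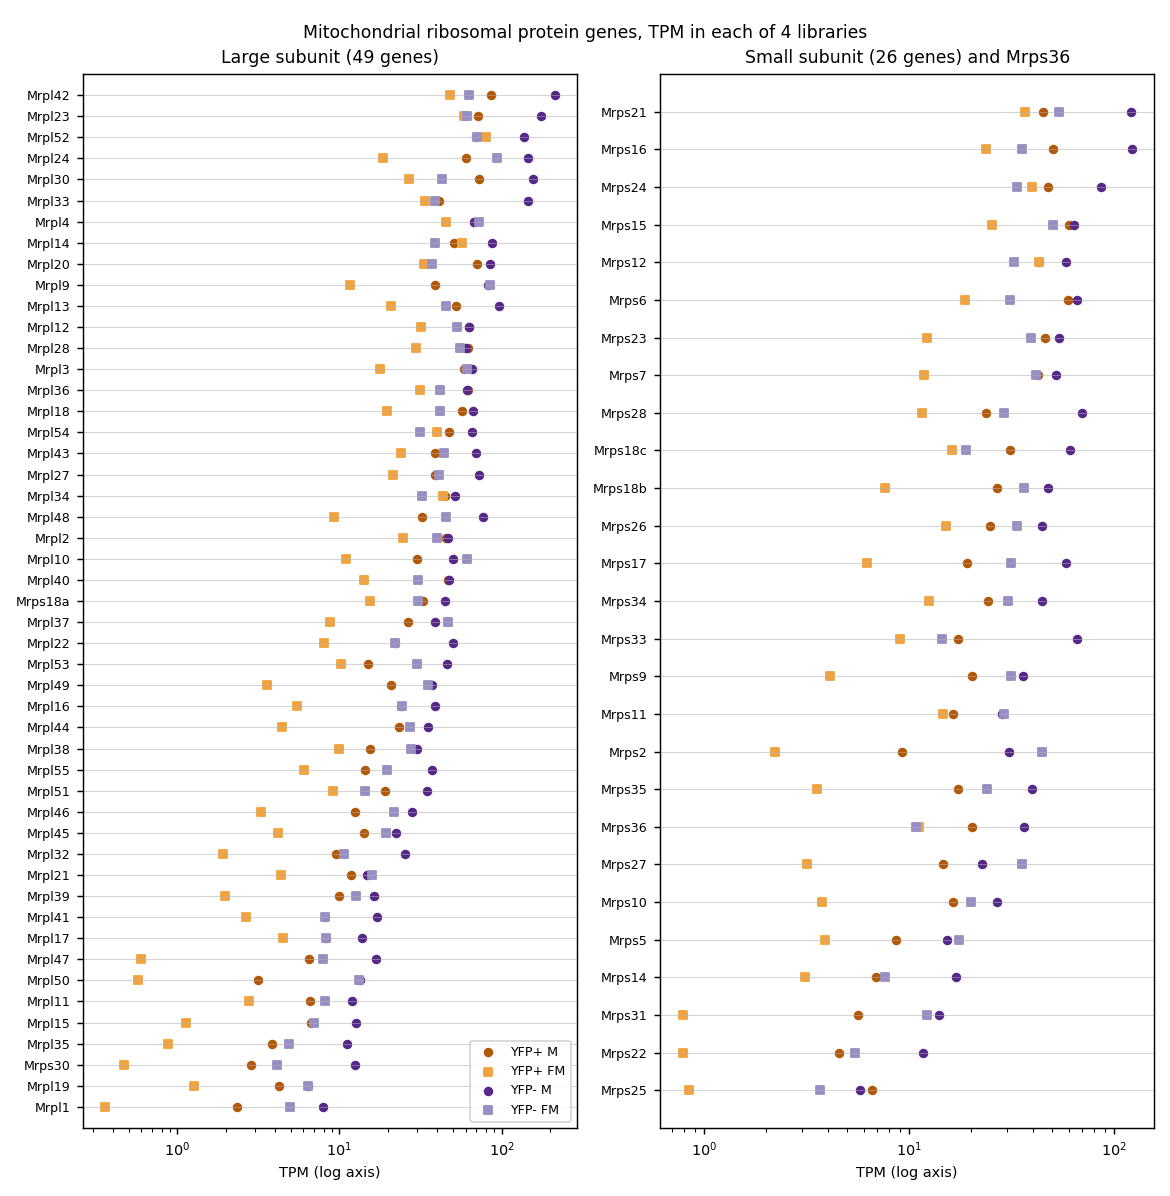
Each row is 1 gene and each point its TPM in 1 of the 4 libraries (log axis), with genes ordered by their mean, the large subunit on the left and the small subunit with Mrps36 on the right. The YFP- M points lie furthest right for most genes, the YFP+ FM points furthest left, and YFP+ M and YFP- FM lie between them.

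The order of the genes by level was much the same in all libraries. Spearman correlations across the 76 genes ran from 0.76 (YFP+ FM with YFP- FM) to 0.92 (YFP+ M with YFP+ FM), as a description of genes that share libraries. The large subunit summed to 1633 TPM in YFP+ M, 864 in YFP+ FM, 2809 in YFP- M and 1660 in YFP- FM. The small subunit summed to 688, 329.8, 1261 and 742 TPM in the same order. The large to small ratio of these sums was 2.38 and 2.62 in YFP+ and 2.23 and 2.24 in YFP- libraries, with YFP+ FM the highest.

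Mitochondrial ribosomal protein genes were lower in YFP+ than in YFP- libraries by a median of 1.03 on the log2(TPM + 1) scale. This was a smaller difference than that of the typical tested gene. This direction belongs to the deposited scale: the median was 0.65, 0.99 and 0.70 under the 3 rescalings described below. Its distance from all tested genes was 0.70 with all libraries and 0.11 without YFP- FM. The difference (YFP+ minus YFP-) was negative for 75 of the 76 genes, with a range from -2.73 to 0.11. All 76 passed the filter on low values (at least 1 TPM in at least 2 libraries). Across all 12251 tested genes the median difference was -1.73. A gene can pass this filter through the 2 YFP- libraries alone, and 7386 genes reached 1 TPM in YFP+ FM against 12829 in YFP- FM. With no filter the median of all genes was -1.20, and the family's distance from it was 0.17. A test across all genes (limma-trend, Benjamini-Hochberg adjusted p under 0.05) called 2 of the 76 lower and 0 higher, while 39.5% of all tested genes were called lower and 0.522% higher. Standard errors of the family's differences ran from 0.79 to 1.15. The fit took them from the trend of spread with level over all genes, so they do not measure the spread of 1 gene. At an unadjusted p under 0.05, 4 of the 76 passed. Both YFP+ libraries lay below both YFP- libraries for 44 of the 76 genes (57.9%), against 79.7% of all tested genes, and above them for 0, against 2.5%. The groups overlapped for the other 32. With 2 against 2 libraries an exact two-sided permutation test cannot go below p = 0.333, so no such test was used.

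Only Mrps2 and Mrpl50 fell in the test on deposited values. Mrps2, the homologue of a bacterial protein between the head and the body of the small subunit, had 9.21 TPM in YFP+ M and 2.22 in YFP+ FM, against 30.8 in YFP- M and 44.5 in YFP- FM. Its groups did not overlap, with both YFP+ below both YFP- libraries, as in 79.7% of all tested genes. Its YFP- FM value was the highest. The difference was -2.73 (SE 1.13, adjusted p = 0.0430). Mrpl50, a mitochondrion-specific protein of the large subunit, had 3.12 TPM in YFP+ M and 0.575 in YFP+ FM, against 13.4 in YFP- M and 13.2 in YFP- FM. The YFP- values were almost the same, and both YFP+ values lay far below them. Its difference was -2.49 (SE 1.03, adjusted p = 0.0416). In GRCm38 Mrps2 lies on chromosome 2 from 28468066 to 28471177 and Mrpl50 on chromosome 4 from 49512597 to 49521083, and no exon of either overlaps an exon of another gene in GENCODE M21. Neither call held under quantile normalization, where the differences were -0.76 and -0.47, under median-ratio scaling (-0.70 and -0.83) or under cyclic loess (-0.65 and -0.29). Without YFP+ M both stayed called and 26 of the 76 genes were called lower (67.5% of all tested genes). Leaving out YFP+ FM, YFP- M or YFP- FM left 0 called, in fits where 7.06%, 11.5% and 7.56% of all genes were.

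The promoters of 5 genes are shown to set the 2 genes that fell beside Mrps12, the gene with the difference nearest to 0, Mrpl34, the gene with the only positive difference, and Mrpl12, whose product forms the stalk that recruits translation factors. Each line gives the 250 bases before the RefSeq start in GRCm38.p6, read 5′ to 3′ on the strand of the gene. Capitals mark matches, on either strand, to the core CCGGAAG of ETS factors such as GABP, to the palindromic core of NRF1, to the core of ZNF143 or to AANATGGCG of YY1. These factors are known to bind promoters of nuclear genes for mitochondrial proteins, and the ZNF143 core was chosen after the sequences were seen.
Mrps2, chr2:28467816-28468065, plus strand: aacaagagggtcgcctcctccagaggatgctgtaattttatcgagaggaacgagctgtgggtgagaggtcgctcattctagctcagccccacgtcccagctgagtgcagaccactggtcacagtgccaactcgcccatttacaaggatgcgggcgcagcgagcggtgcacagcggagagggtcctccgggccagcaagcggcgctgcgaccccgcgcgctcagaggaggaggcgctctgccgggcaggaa
Mrpl50, chr4:49521084-49521333, minus strand: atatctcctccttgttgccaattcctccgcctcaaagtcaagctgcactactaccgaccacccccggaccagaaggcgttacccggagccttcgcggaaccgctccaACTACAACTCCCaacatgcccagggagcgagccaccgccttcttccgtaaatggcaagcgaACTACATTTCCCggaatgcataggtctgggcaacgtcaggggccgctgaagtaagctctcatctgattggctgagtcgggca
Mrps12, chr7:28741822-28742071, minus strand: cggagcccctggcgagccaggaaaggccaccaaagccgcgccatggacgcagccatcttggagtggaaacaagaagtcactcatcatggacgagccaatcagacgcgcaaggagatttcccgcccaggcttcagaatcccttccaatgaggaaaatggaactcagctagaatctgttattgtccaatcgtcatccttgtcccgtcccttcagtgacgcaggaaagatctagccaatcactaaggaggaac
Mrpl34, chr8:71464676-71464925, plus strand: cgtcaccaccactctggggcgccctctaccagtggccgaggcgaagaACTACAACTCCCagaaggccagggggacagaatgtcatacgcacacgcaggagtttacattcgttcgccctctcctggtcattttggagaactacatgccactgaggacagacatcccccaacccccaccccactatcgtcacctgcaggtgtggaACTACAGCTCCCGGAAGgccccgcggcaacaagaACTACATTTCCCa
Mrpl12, chr11:120484387-120484636, plus strand: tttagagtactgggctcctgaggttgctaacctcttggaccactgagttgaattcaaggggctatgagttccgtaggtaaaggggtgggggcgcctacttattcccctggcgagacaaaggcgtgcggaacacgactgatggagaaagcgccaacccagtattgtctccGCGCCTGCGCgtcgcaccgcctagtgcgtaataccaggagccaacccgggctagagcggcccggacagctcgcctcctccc
The printed part of Mrps2 and Mrps12 holds none of the cores, although an ETS core begins at base 2 after the start of Mrps12. Mrpl50 holds the ZNF143 core at 2 places and Mrpl34 at 3, so that the gene of the second largest fall and the gene of the only positive difference share it. The second of the 3 in Mrpl34 overlaps the ETS core by 2 bases. Mrpl12 holds the NRF1 core, on the other strand, 81 bases before the start.

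Promoter windows of 300 bases (250 before and 50 after the start) were matched for 67 of the 76 genes, and the deposited gene start lay within 50 bases of a RefSeq start for 58 of them. The ETS core occurred in 24 of 67 (35.8%), against 19.7% of the 8756 tested genes with a window and 9.93% of all 27025 genes in the table. For the NRF1 core these shares were 17.9%, 11.3% and 5.19%, for YY1 14.9%, 5.97% and 2.76%, and for ZNF143 7.46% (5 genes, 2 of them among the printed promoters that led to its choice), 4.68% and 2.08%. The median difference between groups was -0.94 for the 24 genes with an ETS core and -1.32 for the 43 without. It was -1.14 with the NRF1 core (12 genes) and -1.003 without (55 genes). It was -1.53 with the ZNF143 core (5 genes) and -0.999 without, and -0.88 with the YY1 core (10 genes) and -1.03 without. Such matches are letters in a window and are described without a test.

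In the small subunit the difference ranged from -2.73 to -0.01 with a median of -1.08. Of its 26 genes 1 was called lower, against 39.5% of all tested genes. After Mrps2 the largest difference was that of Mrps31, a mitochondrion-specific protein of the subunit head, with 5.599 TPM in YFP+ M and 0.784 in YFP+ FM against 14.0 in YFP- M and 12.2 in YFP- FM (-2.03, SE 1.08, adjusted p = 0.107). Mrps27, a protein with pentatricopeptide repeats, a fold that binds RNA, had 14.6 TPM in YFP+ M and 3.19 in YFP+ FM against 22.7 in YFP- M and 35.4 in YFP- FM (-1.86, adjusted p = 0.157). Mrps17, a homologue of a bacterial small subunit protein, had 19.2 and 6.23 TPM in YFP+ M and YFP+ FM against 58.1 and 31.3 in YFP- M and YFP- FM (-1.85, adjusted p = 0.146). In Mrps31, Mrps27 and Mrps17, named for their large differences, both YFP+ libraries lay below both YFP- libraries, as in 79.7% of all tested genes. YFP+ FM was the lowest library in each, and none passed. An exon of Mrps27 overlaps a gene on the opposite strand.

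At the other end stood small subunit genes with differences near 0. Mrps12, the homologue of the bacterial protein at the decoding centre that sets the accuracy of translation, had 42.9 TPM in YFP+ M and 43.0 in YFP+ FM, between 58.0 in YFP- M and 32.3 in YFP- FM (-0.01, SE 1.03, adjusted p = 0.992). Mrps24, the homologue of a bacterial protein at the messenger RNA entry, had 47.7 TPM in YFP+ M and 39.6 in YFP+ FM, again between 85.9 in YFP- M and 33.7 in YFP- FM (-0.30, adjusted p = 0.800). For both genes the YFP- libraries enclosed the YFP+ libraries. Mrps6 stood at 59.6 TPM in YFP+ M, 18.7 in YFP+ FM, 66.1 in YFP- M and 31.2 in YFP- FM (-0.43). Mrps15 stood at 59.9, 25.3, 63.4 and 50.5 TPM in the same order of libraries (-0.52). In both genes the M libraries stood above the FM libraries. Mrps24 and Mrps6 share exonic positions with a neighbour on the same strand, so reads of these loci may have been split.

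The most abundant small subunit genes were Mrps21, Mrps16 and Mrps24. Mrps21, a homologue of a small bacterial ribosomal protein, had 44.7 TPM in YFP+ M, 36.6 in YFP+ FM, 121 in YFP- M and 53.8 in YFP- FM (-0.98, adjusted p = 0.398). Mrps16, a homologue of a bacterial assembly protein and a known human disease gene, had 50.3, 23.7, 122 and 35.4 TPM in the same order (-0.91, adjusted p = 0.438). In both genes YFP- M stood more than 2-fold above every other library. Without YFP- M the difference was -0.40 for Mrps21 and -0.03 for Mrps16.

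In the large subunit the difference ranged from -2.49 to 0.11 with a median of -1.03. Of its 49 genes 1 was called lower, against 39.5% of all tested genes. Following Mrpl50 came Mrpl9, the homologue of a bacterial protein near the base of the L1 stalk, with 38.9 TPM in YFP+ M and 11.6 in YFP+ FM against 82.7 in YFP- M and 85.1 in YFP- FM (-1.92, SE 1.03, adjusted p = 0.112). Mrpl49, a mitochondrion-specific protein, had 20.8 and 3.56 TPM in YFP+ M and YFP+ FM against 37.5 and 35.3 in YFP- M and YFP- FM (-1.91, adjusted p = 0.141). Mrpl47, the homologue of a bacterial protein at the exit of the peptide tunnel, had 6.51 and 0.5996 TPM in YFP+ M and YFP+ FM against 16.8 and 7.89 in YFP- M and YFP- FM (-1.86, adjusted p = 0.133). Both YFP+ libraries lay below both YFP- libraries in all 3, as in 79.7% of all tested genes, and none passed. Each of these genes overlaps an exon of another gene on the opposite strand, and whether the counting used strand was not given.

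Mrpl34, a short protein deep in the large subunit with a bacterial homologue, was the only gene of the family with a positive difference. It had 44.5 TPM in YFP+ M and 43.6 in YFP+ FM, between 51.6 in YFP- M and 32.3 in YFP- FM (0.11, SE 1.03, adjusted p = 0.932). Mrpl54 (47.2, 39.8, 65.3 and 31.5 TPM in YFP+ M, YFP+ FM, YFP- M and YFP- FM) and Mrpl14 (51.2, 57.2, 87.8 and 38.6 TPM) differed by -0.07 and -0.10. In all 3 genes the YFP- libraries enclosed the YFP+ libraries. Mrpl14 is the protein to which the assembly factor Malsu1 binds. Mrpl36 differed by -0.19, with 62.3, 31.3, 61.6 and 41.5 TPM in the same order of libraries, and Mrpl12 by -0.37, with 62.7, 31.7, 62.8 and 53.4 TPM. These last 2 genes were nearly equal in the M libraries. Exons of Mrpl12, Mrpl14 and Mrpl36 overlap a gene on the opposite strand.

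The most abundant large subunit genes were Mrpl42, Mrpl23, Mrpl52, Mrpl24 and Mrpl30, and Mrpl42 held the highest value of the family. Mrpl42, a mitochondrion-specific protein, had 86.6 TPM in YFP+ M, 47.8 in YFP+ FM, 212 in YFP- M and 62.9 in YFP- FM (-0.84, adjusted p = 0.451). Mrpl23, at the exit of the peptide tunnel, had 71.8, 58.3, 174 and 61.1 TPM in the same order (-0.67), and Mrpl30 72.6, 26.9, 155 and 42.9 TPM (-0.87). Mrpl52 had 69.4 and 80.4 TPM in YFP+ M and YFP+ FM against 138 and 70.4 in YFP- M and YFP- FM (-0.40). In these 4 genes a single library, YFP- M, stood far above the rest, and the groups overlapped. In Mrpl24 (60.5 and 18.7 against 145 and 94.1 TPM, difference -1.76, adjusted p = 0.129) they did not. Both YFP+ libraries lay below both YFP- libraries there, as in 79.7% of all tested genes. An exon of Mrpl24 overlaps a gene on the opposite strand.

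The 3 Mrps18 genes are paralogs related to 1 bacterial protein. Mrps18c takes its place in the small subunit, Mrps18b has another site there, and Mrps18a sits in the large subunit; the last 2 are counted here as mitochondrion-specific. Mrps18c had 31.1 TPM in YFP+ M, 16.2 in YFP+ FM, 60.8 in YFP- M and 19.0 in YFP- FM (-0.58, adjusted p = 0.642). Mrps18b had 26.9, 7.58, 47.8 and 36.5 TPM in the same order (-1.47, adjusted p = 0.243), and Mrps18a 32.8, 15.5, 44.6 and 30.3 TPM (-0.68, adjusted p = 0.584). Only in Mrps18b did the groups not overlap, with both YFP+ below both YFP- libraries, as in 79.7% of all tested genes. The differences among the paralogs were smaller than their standard errors of 1.07 to 1.08. These errors follow the level of a gene and not its own spread. Exonic positions of Mrps18c are shared with a gene on the same strand, and those of Mrps18b with a gene on the opposite strand. Mrps36 had 20.2 TPM in YFP+ M and 11.2 in YFP+ FM against 36.4 in YFP- M and 10.8 in YFP- FM (-0.39, adjusted p = 0.768).

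Genes descended from bacterial ribosomal proteins and genes found only in mitochondria were also set side by side, without a test of their difference. Of 46 genes with a bacterial homologue 1 was called lower, with a median difference of -0.98. Of 29 mitochondrion-specific genes 1 was called lower, with a median of -1.31. Between the FM libraries the medians were -1.08 and -1.61, and between the M libraries -0.79 and -0.83. Both YFP+ libraries lay below both YFP- libraries for 25 of the 46 and 19 of the 29, against 79.7% of all tested genes. Of all tested genes 39.5% were called lower. The median transcript of the first kind was 996.5 bases long and that of the second 1311 bases.

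The 2 pairs of libraries with the same title start gave different pictures. Between the M libraries (YFP+ M minus YFP- M) the family's median difference was -0.82 and that of all tested genes -1.01. Between the FM libraries the medians were -1.33 and -2.48. The family therefore lay close to all genes in the M pair and above them in the FM pair. Both pairs gave a negative difference for 65 of the 76 genes (85.5%, against 83.5% of all tested genes), and for 11 the pairs had opposite signs (14.5%, against 13.3%).

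**Figure D2:**
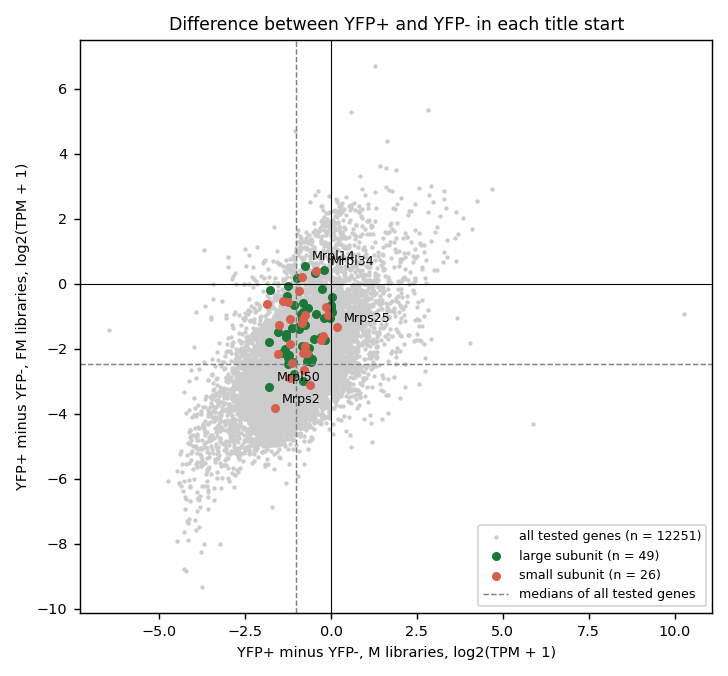
Each point is 1 gene (green and red for the large and small subunit, grey for all tested genes), with the YFP+ minus YFP- difference on the log2(TPM + 1) scale between the M libraries on the x axis and between the FM libraries on the y axis; dashed lines are the medians of all tested genes (-1.01 and -2.48) and Mrps36 is left out. The family is spread around the dashed line on the x axis and lies mostly above it on the y axis.

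A rank within a library does not depend on how the library was scaled, and by this measure 1 library stood apart. The median gene of the family lay at the 77.7th percentile of all tested genes in YFP+ M, at 78.6 in YFP+ FM, at 77.8 in YFP- M and at 60.0 in YFP- FM. The first 3 were alike across both YFP groups. Without YFP- FM the family's median difference was -1.41 against -1.52 for all tested genes, a distance of 0.11, where with all libraries it was 0.70.

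**Figure D3:**
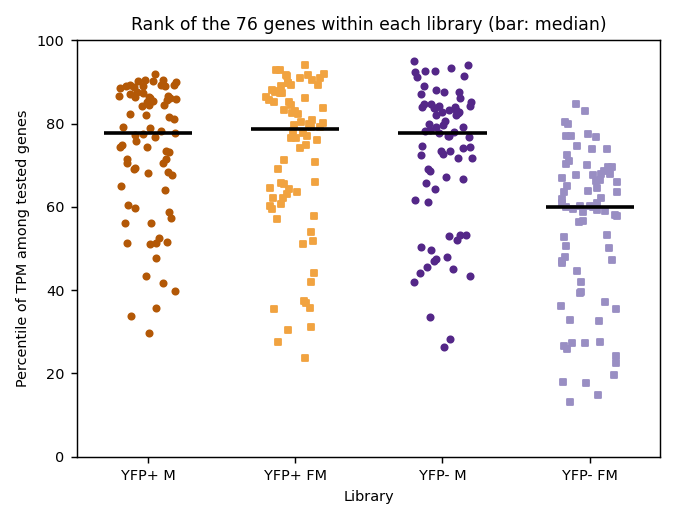
Each point is 1 of the 76 genes, placed by its library on the x axis and by the percentile of its TPM among the tested genes of that library on the y axis; bars are medians. Medians are 77.7, 78.6 and 77.8 in YFP+ M, YFP+ FM and YFP- M, and 60.0 in YFP- FM.

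Rescaling the libraries turned the sign of the family's difference. Under quantile normalization its median was 0.65, under median-ratio scaling 0.99 and under cyclic loess 0.70, while the medians of all tested genes lay at -0.03, -0.11 and -0.01. Median-ratio scaling called 10 of the 76 higher and 0 lower, where 6.2% of all tested genes were called higher and 6.45% lower. These 10 were Mrpl2, Mrpl4, Mrpl12, Mrpl14, Mrpl20, Mrpl28, Mrpl34, Mrpl36, Mrpl54 and Mrps12. Quantile normalization and loess called 0 in either direction (all tested genes 1.21% and 0.531% higher, 1.67% and 0.327% lower). After median-ratio scaling the family's median difference was 0.27 between the M libraries and 1.77 between the FM libraries. On the deposited scale and under the 3 rescalings the family's median lay above that of all tested genes, by 0.68 to 1.10. On the deposited scale this distance was 0.17 with no filter on low values and 1.18 with a pseudocount of 0.1.

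Long transcripts of the family differed more than short ones, but only in the FM libraries. Transcript length (median of the protein-coding transcripts in GENCODE M21) and the difference between YFP+ FM and YFP- FM had a Spearman correlation of -0.61 across the 76 genes, against -0.03 between YFP+ M and YFP- M. These are descriptions of genes that share libraries. Across 10807 tested genes with a length the same values were -0.32 and -0.13, of the same sign. The 25 genes of up to 800 bases had a median difference of -0.54 between the FM libraries, and the 33 genes over 1200 bases had -1.99. All tested genes in the same bands had -1.63 and -2.71. Length also went with the difference within the YFP- group (YFP- FM minus YFP- M, correlation 0.41) and within the YFP+ group (YFP+ FM minus YFP+ M, -0.52). Across the 10807 genes these correlations were 0.32 and -0.06. With GC content the overall difference had a correlation of 0.49 in the family and 0.34 in 10807 genes. The part of length, GC content and RNA quality in the group difference was not tested.

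**Figure D4:**
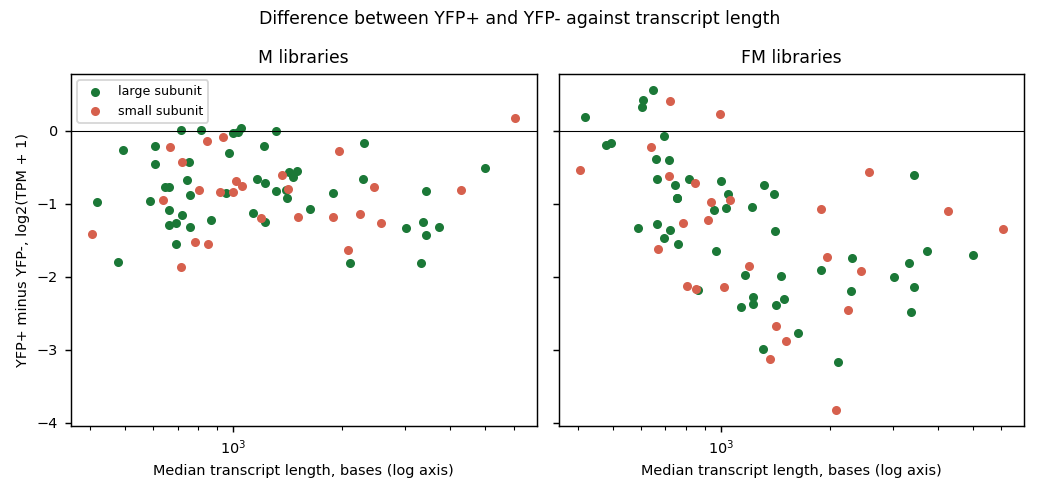
Each point is 1 gene of either subunit, with transcript length in bases on the x axis (log axis) and the YFP+ minus YFP- difference on the log2(TPM + 1) scale on the y axis, for the M libraries on the left and the FM libraries on the right. The points fall with length on the right (correlation -0.61 over all 76 genes, Mrps36 not drawn) and not on the left (-0.03).

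Most other parts of the mitochondrial translation machinery lay closer to the median of all genes, -1.73, than the ribosomal proteins did. Lists that lay closer had median transcripts of 1657 to 2526.5 bases, against 1038 in the family and 2080 in all tested genes. The part of length in this contrast was not tested. Of 7 ribosome subunits named outside the Mrpl and Mrps pattern 1 was called lower and 0 higher, with a median difference of -0.96. Of all tested genes 39.5% were called lower and 0.522% higher. The one that fell was Ptcd3, a pentatricopeptide protein of the small subunit, at 5.50 TPM in YFP+ M and 0.441 in YFP+ FM against 21.4 in YFP- M and 37.7 in YFP- FM (-3.27, SE 1.14, adjusted p = 0.0178). Its call was lost on leaving out YFP+ FM (adjusted p = 0.136), YFP- M (adjusted p = 0.256) or YFP- FM (adjusted p = 0.496). Chchd1 (-0.98, adjusted p = 0.408) and Dap3 (-1.07, adjusted p = 0.415), other small subunit proteins, did not pass. Dap3, which binds GTP, had 12.9 TPM in YFP+ M and 10.6 in YFP- M, but 2.59 in YFP+ FM and 18.1 in YFP- FM.

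Of 13 tested translation factors 4 fell and 0 rose (median -1.71). Among these were Mtif2, the initiation factor that brings the first transfer RNA to the ribosome (2.30 ± 2.51 against 16.7 ± 8.74 TPM, SD, n = 2 libraries each), Gfm2, a factor of ribosome recycling (3.55 ± 3.79 against 29.7 ± 12.3 TPM), and Guf1, a GTPase that acts on stalled ribosomes, which was listed at 0 in YFP+ FM. Of 26 assembly and rRNA modification genes 7 fell and 0 rose (median -1.85), including the RNA-binding protein Fastkd2 (-2.86, adjusted p = 0.00894), the methyltransferase Mettl15 (-2.26) and the GTPase Gtpbp10 (-1.87). Of 17 mitochondrial aminoacyl-tRNA synthetases, which load transfer RNAs with amino acids, 7 fell and 0 rose (median -1.75), including Yars2 (-2.35, adjusted p = 0.000945, listed at 0 in YFP+ FM), Nars2 (-1.97) and Iars2 (-3.40). In each of these lists the share that fell was below or near the 39.5% of all tested genes.

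Genes of mitochondrial transcription and messenger RNA handling (12 tested, median -2.02) held 4 that fell and 0 that rose. They included Lrpprc, which stabilises mitochondrial messenger RNAs, at 6.64 TPM in YFP+ M and 1.03 in YFP+ FM against 24.7 in YFP- M and 33.1 in YFP- FM (-2.91, adjusted p = 0.0335), the polymerase Mtpap that adds their poly(A) tails (-3.05) and the RNA-degrading enzyme Pnpt1 (-3.26). Of 9 tested regulators of mitochondrial biogenesis 2 fell and 0 rose (median -2.15). These were the subunits of GABP, Gabpa, at 1.63 and 0.257 TPM in YFP+ M and YFP+ FM against 7.99 and 12.6 in YFP- M and YFP- FM (-2.60, adjusted p = 0.0133), and Gabpb1 (-2.96, adjusted p = 0.0301), while Yy1 did not pass (-2.55, adjusted p = 0.0587). Of these related genes, Yars2 and Fastkd2 kept a call under median-ratio scaling (adjusted p = 0.0443 and 0.0487). None of the genes named so far passed under quantile normalization or loess. Slirp, Esrra, Aurkaip1 and Mrp63, not named by the rule given below, passed under median-ratio scaling only (adjusted p = 0.0190, 0.0238, 0.0296 and 0.0374). That scaling called 6.45% of all tested genes lower and 6.2% higher. Ppargc1b, a coactivator of mitochondrial biogenesis singled out after its values were seen, did not pass on deposited values (0.67, adjusted p = 0.546) but did under quantile normalization, median-ratio scaling and loess (adjusted p = 0.0349, 0.00739 and 0.0463). The shares of these last 2 lists that fell also lay below the 39.5% of all tested genes. Of the 15 called genes named from the related lists, leaving out YFP+ FM ended 15 calls, and leaving out YFP- M or YFP- FM ended 14 each. Transcripts made from mitochondrial DNA were not analysed here, and none of the gene names looked up for them occurred in the deposited data.

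**Figure D5:**
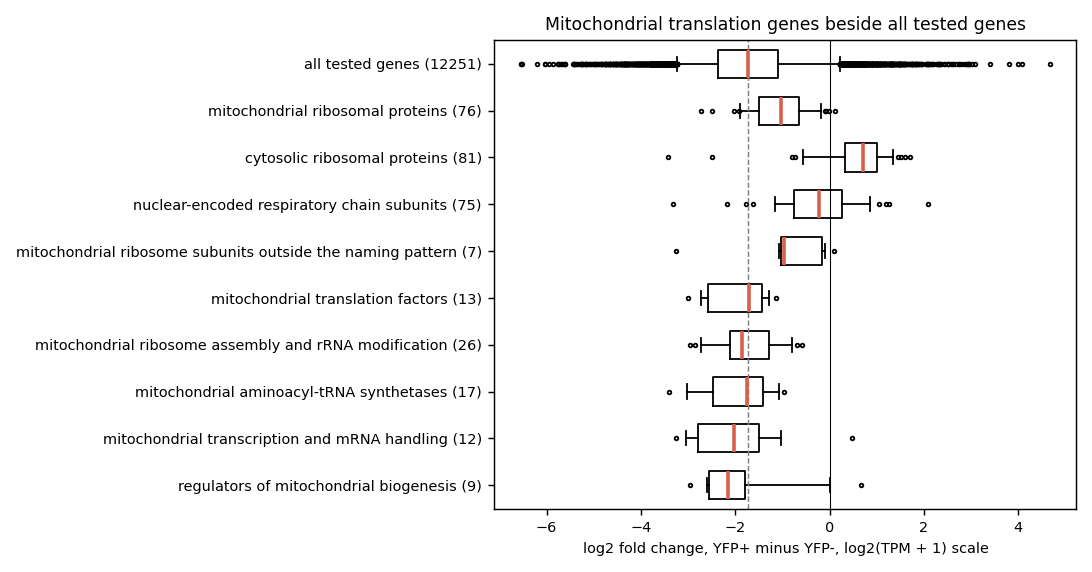
Boxes give the log2 fold change (YFP+ minus YFP-, log2(TPM + 1) scale) of the tested genes of each list, with the number tested in parentheses; the red line is the median, the box the quartiles, whiskers the 5th and 95th percentiles, points the genes beyond, and the dashed line the median of all tested genes (-1.73). Medians are -1.03 for mitochondrial ribosomal proteins, 0.70 for cytosolic ribosomal proteins and -0.23 for respiratory chain subunits.

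Set against other abundant gene families, the mitochondrial ribosomal proteins took a smaller part in YFP+ than in YFP- libraries. For every 100 TPM of cytosolic ribosomal proteins, the proteins of the ribosome outside mitochondria, there were 1.34 TPM of mitochondrial ones in YFP+ M and 0.531 in YFP+ FM, against 2.31 in YFP- M and 3.30 in YFP- FM. For every 100 TPM of nuclear-encoded respiratory chain and ATP synthase subunits there were 15.6 and 7.74 in YFP+ M and YFP+ FM, against 20.9 and 24.3 in YFP- M and YFP- FM. Such ratios within a library do not depend on its scaling, and both gave the same order of groups in either pair. They rest on sums, which abundant genes dominate. By gene, the 81 tested cytosolic ribosomal proteins had a median difference of 0.70 (2 called higher, 1 lower) and the 75 respiratory chain subunits -0.23 (1 higher, 1 lower). Of all tested genes 0.522% were called higher and 39.5% lower. The order of the families by these medians turned with the scaling. Cytosolic ribosomal proteins, at 0.29 under quantile normalization and 0.0039 under loess, lay below the mitochondrial ones at 0.65 and 0.70, and under median-ratio scaling they lay above, at 2.97 against 0.99. Respiratory chain subunits were at 0.94, 0.69 and 2.01 under quantile normalization, loess and median-ratio scaling. The last called 19 of the 75 higher, where 6.2% of all tested genes were. Without YFP- M the cytosolic median was 1.42, with 37 called higher where 105 of all tested genes were, and the respiratory median 0.47. Without YFP- FM these medians were 0.03 and -0.73. Their median transcripts were 689 and 651 bases long, against 1038 bases in the mitochondrial ribosomal protein family. The differences between the families were not tested.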

How the data were processed

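Per the submitters' processing notes, reads were aligned with HISAT (version not given) to GRCm38 (mm10). The sources used here give neither the abundance program nor its strand setting. The authors deposited 1 gene table for each library, with TPM, FPKM and mean read coverage (signal) for each gene. Depth in reads is unknown, and their coverage stands in for it. Rows of 1 name were summed. All 12251 genes that reached 1 TPM in 2 or more of the 4 libraries entered limma-trend (limma 3.58.1, R 4.3.3) on log2(TPM + 1), YFP+ minus YFP-, with Benjamini-Hochberg adjustment at 0.05 over all of them. This scale understates the change of low genes. The test was also run on simulated data, where only genes of high level were changed and no shift was shared by all genes. Most genes of the family lie below that level, so the run does not bear on their calls. Alternatives were a pseudocount of 0.1, no filter or one at 5 TPM, quantile, median-ratio and cyclic loess scaling, FPKM, genes on a single row, a replicate block and leaving out each library. Named genes were, in each subunit, the 5 of highest mean TPM, the 4 of most negative and the 4 of most positive difference, with Mrps12, Mrpl12, the Mrps18 genes and Mrps36, any called higher, listed at 0, under the filter or called the same way under every scaling, and the 3 of lowest p in each related list. Members and lists were chosen with earlier results of these data known. Sequences are RefSeq's and transcript models GENCODE M21's.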

Additional observations from a re-analysis of the deposited data

Results flagged for a closer look

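For 11 of the 76 genes the YFP+ minus YFP- difference had opposite signs between the M libraries and between the FM libraries, and 13.3% of all tested genes did so. These differences were not tested, since each pair holds 1 library per group. The FM difference minus the M difference, on the log2(TPM + 1) scale, was 1.32 for Mrpl14, 1.17 for Mrpl52, 1.06 for Mrps24, 0.87 for Mrps36, 0.83 for Mrps12, 0.79 for Mrpl54 and 0.64 for Mrpl34, all negative in M and positive in FM. It was -1.51 for Mrps25, -0.90 for Mrpl28, -0.66 for Mrpl4 and -0.41 for Mrpl36, all positive in M and negative in FM.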

How the results depend on the processing

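The family's negative median turned positive under every rescaling of the libraries that was run, at 0.65 with quantile normalization, 0.99 with median-ratio scaling and 0.70 with cyclic loess, and it was -0.51 with FPKM. The cause was not tested. Called lower were 0 of the 76 genes with a pseudocount of 0.1, with no filter and under the 3 rescalings, and 1 with a filter at 5 TPM and with FPKM; 10 were called higher with median-ratio scaling. Lower calls among all tested genes were 3078 of 12251 with a pseudocount of 0.1 and 5055 of 17630 with no filter. They were 2902 of 9184 with a filter at 5 TPM and 3461 of 11242 with FPKM. Of 12251 genes, 205 were called lower with quantile normalization, 790 with median-ratio scaling and 40 with loess. Called higher were 148 with quantile normalization, 759 with median-ratio scaling and 115 with FPKM. Leaving out 1 library at a time gave 0 to 26 of the 76 called lower, a family median of -1.64 to -0.50 and, over all tested genes, 865 to 8273 called lower and 14 to 105 called higher. In these fits the lone library is assumed to vary like the other group. With title start as a replicate block, 0 of the 76 were called, and 1726 of all tested genes were called lower and 23 higher; the labels do not say that title starts pair the libraries. The block also ended 12 of the 15 calls among the genes named from related lists, Ptcd3 included (adjusted p = 0.144). The family's read coverage was lowest in YFP+ FM, which limits the low genes there. With quantile normalization the sign turned for Mrpl12 (1.16), Mrpl14 (1.32), Mrpl23 (0.60), Mrpl30 (0.59), Mrpl36 (1.37), Mrpl42 (0.45), Mrpl47 (0.069), Mrpl49 (0.0088), Mrpl52 (0.84), Mrpl54 (1.498), Mrps12 (1.56), Mrps15 (1.05), Mrps16 (0.64), Mrps17 (0.0028), Mrps18a (1.09), Mrps18b (0.36), Mrps18c (1.16), Mrps21 (0.47), Mrps24 (1.22), Mrps27 (0.099), Mrps36 (1.41), Mrps6 (1.25), Chchd1 (0.63) and Dap3 (0.98). With median-ratio scaling the sign turned for Mrpl12 (1.85), Mrpl14 (2.12), Mrpl23 (1.57), Mrpl24 (0.47), Mrpl30 (1.35), Mrpl36 (2.03), Mrpl42 (1.40), Mrpl49 (0.18), Mrpl52 (1.85), Mrpl54 (2.14), Mrpl9 (0.29), Mrps12 (2.20), Mrps15 (1.69), Mrps16 (1.30), Mrps17 (0.29), Mrps18a (1.51), Mrps18b (0.69), Mrps18c (1.59), Mrps21 (1.25), Mrps24 (1.91), Mrps27 (0.20), Mrps36 (1.72), Mrps6 (1.77), Chchd1 (1.21) and Dap3 (0.91). With cyclic loess the sign turned for Mrpl12 (1.08), Mrpl14 (1.28), Mrpl23 (0.48), Mrpl30 (0.47), Mrpl36 (1.30), Mrpl42 (0.27), Mrpl47 (0.36), Mrpl49 (0.069), Mrpl52 (0.72), Mrpl54 (1.46), Mrps12 (1.53), Mrps15 (0.97), Mrps16 (0.57), Mrps17 (0.042), Mrps18a (1.09), Mrps18b (0.37), Mrps18c (1.20), Mrps21 (0.40), Mrps24 (1.17), Mrps27 (0.20), Mrps31 (0.19), Mrps36 (1.61), Mrps6 (1.18), Chchd1 (0.59) and Dap3 (1.12). With FPKM in place of TPM the sign turned for Mrpl12 (0.16), Mrpl14 (0.42), Mrpl36 (0.34), Mrpl52 (0.14), Mrpl54 (0.45), Mrps12 (0.51), Mrps15 (0.0073), Mrps24 (0.22), Mrps36 (0.099) and Mrps6 (0.096). Leaving out 1 library at a time, the sign turned for these genes, with ranges of -0.85 to 0.11 for Mrpl12, -0.69 to 0.48 for Mrpl14, -1.41 to 0.081 for Mrpl23, -1.79 to 0.045 for Mrpl30, -0.22 to 0.44 for Mrpl34, -0.67 to 0.30 for Mrpl36, -1.71 to 0.032 for Mrpl42, -0.88 to 0.085 for Mrpl52, -0.58 to 0.45 for Mrpl54, -0.42 to 0.40 for Mrps12, -1.13 to 0.081 for Mrps15, -1.40 to 0.23 for Mrps18c, -0.97 to 0.36 for Mrps24, -1.22 to 0.45 for Mrps36, -1.24 to 0.38 for Mrps6 and -2.06 to 0.092 for Chchd1.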

Other observations

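Libraries of the same YFP group also differed from each other, without a test since there is 1 library of each kind. The family's median difference was -0.62 between YFP- FM and YFP- M, where that of all tested genes was 0.44, and -1.27 between YFP+ FM and YFP+ M, where that of all tested genes was -1.05.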
